A study of Mus musculus with 12 samples.

Results

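The STAT family of transcription factors was examined in bone marrow-derived macrophages (BMDMs) through 6 of its genes, Stat2, Stat3, Stat4, Stat5a, Stat5b and Stat6. They were found by their gene symbols among 43453 genes of a count table. For each gene the transcript with the highest total count was taken, because transcripts of a gene share reads. BMDMs of C57BL/6 background were grown from bone marrow for 7 days in 50 ng/mL of M-CSF, the growth factor of macrophages, and carried floxed tlr4 (tlr4f/f) in every group. The tlr4f/f-lysM-cre genotype also carries Cre recombinase expressed from the lysM locus (Lyz2), which deletes floxed tlr4 in myeloid cells, neutrophils included. Cells of each genotype were left untreated (LPS-) or given 1 µg/mL of lipopolysaccharide, the ligand of TLR4, for 6 h (LPS+). Each of the 4 groups held 3 libraries, and nothing in the labels says that these came from separate mice, so that p-values measure the spread between these samples, which may be technical.

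STATs are latent factors of the cytoplasm. When a cytokine binds its receptor, the JAK kinases on the receptor chains phosphorylate a STAT, which dimerises, enters the nucleus and switches on its targets. Stat2 works with Irf9 in the ISGF3 complex downstream of type I interferon, Stat3 downstream of IL-6 and IL-10, Stat4 of IL-12, Stat5a and Stat5b of GM-CSF and IL-2 family cytokines, and Stat6 of IL-4 and IL-13. In macrophages, LPS leads to interferon-beta, IL-6 and IL-10, which then act on the same cells, and the SOCS proteins, themselves STAT targets, shut the kinases off.

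The headings of the count columns needed a check before any direction was read. Group A carries the heading LPS- tlr4f/f, and group B the heading LPS- tlr4f/f-lysM-cre. Group C is headed LPS+ tlr4f/f, and group D is headed LPS+ tlr4f/f-lysM-cre. Levels are given as CPM, read counts scaled to library size with TMM factors. Tlr4, the gene targeted, was at 77.0 to 146 CPM in group A, 94.7 to 117 in group B, 24.5 to 31.2 in group C and 24.4 to 27.4 in group D. It was thus low in both groups headed LPS+ and not in both groups headed as carrying Cre. Lyz2, the locus that carries Cre, was at 5953 to 23331 CPM in groups A and B and at 10.4 to 75.3 CPM in groups C and D. Il1b, a classical LPS-induced cytokine, was at 1633 to 8224 CPM in group B and 2488 to 2671 in group D, but at 2.69 to 3.61 CPM in group C and at most 6.95 in group A. Both readings are therefore given throughout, the first as headed and the second with the headings of groups B and C exchanged. No value of a STAT gene depends on the reading, only the name of the comparison it belongs to.

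The libraries held between 33577440 and 56445989 counts over these genes, with a median of 45331248, and TMM factors ran from 0.703 to 1.21. By group the factors were 1.11 to 1.21 in A, 0.703 to 0.823 in B, 1.16 to 1.19 in C and 0.953 to 0.970 in D. A lower factor gives a higher CPM for the same share of the counts. The 8 macrophage markers, among them Csf1r, Adgre1, Cd68 and Spi1, were counted in every group. They summed to 6674 to 7703 CPM in group A, 11498 to 14693 in group B, 4846 to 5136 in group C and 8442 to 8645 in group D, groups that did not overlap and stood in the order B, D, A and C. The sum of 5 stromal markers (Col1a1, Col1a2, Col3a1, Pdgfra and Pdgfrb) varied widely in groups A and B. It was 665, 61.0 and 8.21 CPM in group A and 967, 183 and 1457 CPM in group B, against 18.5 to 53.9 CPM in the 6 libraries of groups C and D. The 6 neutrophil markers summed to between 13.0 and 164 CPM in the libraries of group B and to at most 12.2 CPM in each of the other libraries, with Ly6g at 0 or 1 count. In group B, S100a8 reached 125 CPM and S100a9 32.9 CPM, while Elane reached 0.622 and Mpo 1.37 CPM. The 5 markers of dendritic cells summed to 2.88 to 6.35 CPM in groups B and D and to at most 0.968 CPM in the others. The 8 markers of T and NK lymphocytes summed to at most 14.3 CPM and the 5 of B lymphocytes to at most 1.96 CPM. The part of these other cells in the STAT levels was not tested. In such bulk RNA, more cells of a type and more RNA per cell cannot be told apart.

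The genes lie on 3 chromosomes (GRCm38, the build the authors call mm10). Stat5b (chromosome 11, 100780731 to 100850724, minus strand), Stat5a (100859351 to 100885169, plus strand) and Stat3 (100885098 to 100939540, minus strand) are neighbours. Stat5a and Stat5b lie 8.6 kb apart, and Stat5a and Stat3 overlap at their ends by 72 exonic bases. Stat6 (chromosome 10, 127642986 to 127660957) and Stat2 (128270559 to 128292849) share a chromosome at a distance of 609.6 kb, both on the plus strand. Stat4 (chromosome 1, 51987148 to 52107189, plus strand) shares 1033 exonic bases with the processed transcript Gm28177 on the same strand, 26.68% of its exonic bases, so that part of its count is uncertain. Stat6 shares 40 exonic bases with Nab2 on the other strand. The library kit did not mark the strand, and reads in these overlaps cannot be assigned.

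The promoters of Stat2, Stat3 and Stat4 are shown because Stat2 and Stat3 carried the main differences described below and because Stat2 and Stat4 held the binding letters of STAT complexes. They are the 250 bases before RefSeq starts (GRCm38.p6), 5′ to 3′ on the strand of the gene, and for Stat4 a 60-base piece. Capitals mark the core of the interferon-stimulated response element (ISRE), the sequence bound by ISGF3, searched on both strands as GAAA, any 2 bases and GAAA. Letters of the gamma-activated site (GAS), bound by STAT dimers and searched as TTC, any 3 bases and GAA, which reads the same on both strands, would also be in capitals.
Stat2, chr10:128270248-128270497, plus strand: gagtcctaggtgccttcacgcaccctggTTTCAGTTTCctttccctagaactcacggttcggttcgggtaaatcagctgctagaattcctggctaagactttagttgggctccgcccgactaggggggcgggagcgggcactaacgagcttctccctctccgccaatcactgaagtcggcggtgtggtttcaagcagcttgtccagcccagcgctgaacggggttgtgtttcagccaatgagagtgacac
Stat3, chr11:100939541-100939790, minus strand: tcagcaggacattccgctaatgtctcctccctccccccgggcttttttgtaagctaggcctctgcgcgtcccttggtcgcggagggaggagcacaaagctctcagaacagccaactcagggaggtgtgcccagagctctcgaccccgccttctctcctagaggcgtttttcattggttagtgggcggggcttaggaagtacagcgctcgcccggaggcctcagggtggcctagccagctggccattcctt
Stat4, second start, chr1:52008118-52008177, plus strand: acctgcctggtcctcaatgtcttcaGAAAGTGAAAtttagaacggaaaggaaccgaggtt
The ISRE core began 222 bases before the start of Stat2, on the opposite strand, and 97 bases before the second start of Stat4. It was not in the windows of Stat3, Stat5a, Stat5b or Stat6, and the GAS core was in none of the 6 genes. Of 32851 promoters of the same length, 2.98% held the ISRE core and 7.02% the GAS core. Counted by gene, 3.46% of 27025 genes held the ISRE core in a promoter and 8.13% the GAS core. Of the 9 genes of a list of ISGF3 targets with a promoter in the reference, 5 held the ISRE core, namely Ifit1, Ifit3, Isg15, Oas1a and Rsad2. These matches describe letters in a window and say nothing about binding.

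Compared per length, in CPM per kb of transcript, Stat6 had the highest level of the family in the libraries of group A (66.9 ± 7.44, SD, n = 3) and group C (49.8 ± 1.05). In those of group B and group D the highest was Stat2, at 254 ± 41.7 and 117 ± 6.72 CPM per kb. Stat4 was the lowest in every group, at most 0.676 CPM per kb on average. Summed over the 6 genes, the family stood at 161 ± 11.3 CPM per kb in group A, 518 ± 107 in group B, 112 ± 1.99 in group C and 235 ± 6.72 in group D. The sums of the 4 groups did not overlap. Stat6 made up 41.4% and 44.3% of this sum in groups A and C, and 9.90% and 17.5% in groups B and D. Stat2 made up 26.8% and 19.7% in the former groups and 49.2% and 49.8% in the latter. The share of Stat3 was 34.2% in group B and between 20.6% and 21.4% in the others.

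**Figure D1:**
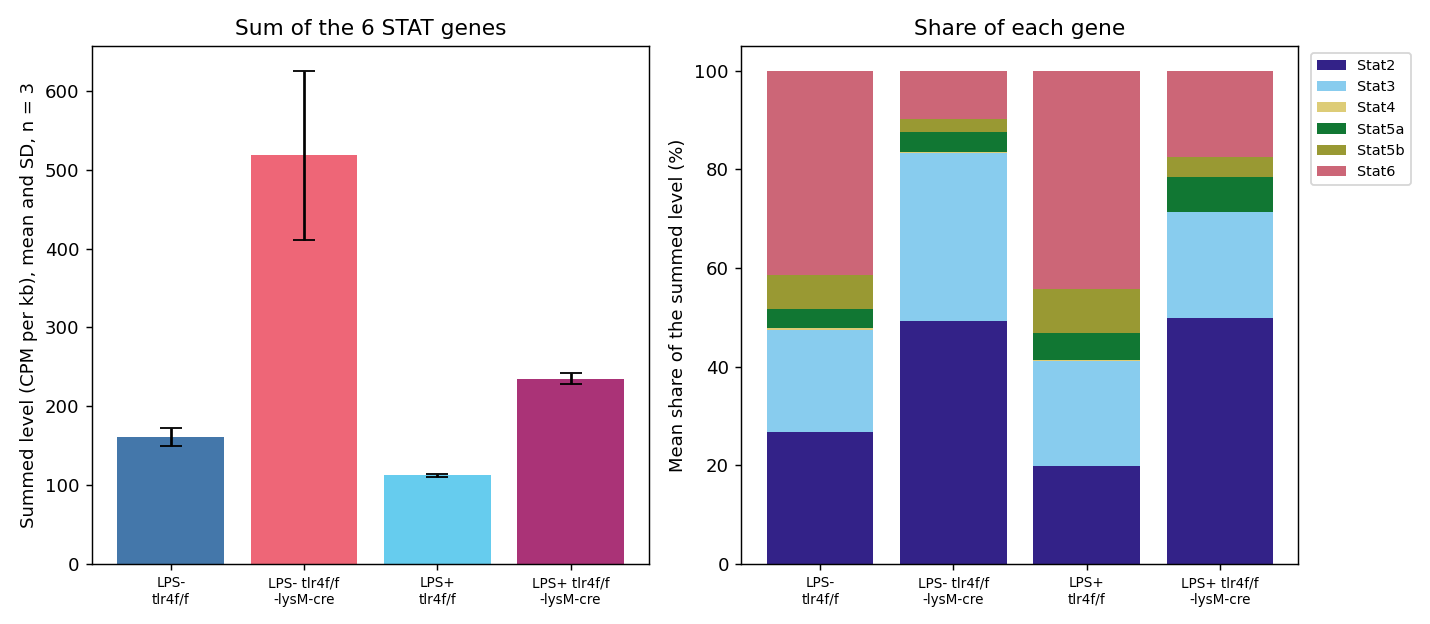
Left, summed level of the 6 STAT genes (CPM per kb, mean and SD of 3 libraries) in each group as headed. Right, mean share of each gene in that sum (%). Stat6 is the widest band in groups A and C, at 41.4% and 44.3%, and Stat2 in groups B and D, at 49.2% and 49.8%.

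Stat2, the interferon arm of the family, differed most in level across the groups. Its CPM was 197, 228 and 152 in the libraries of group A and 1041, 1333 and 991 in those of group B. It was 104, 104 and 86.8 in those of group C and 499, 503 and 553 in those of group D. No group overlapped with another, and the order from the highest was B, D, A and C. Stat3, which relays IL-6 and IL-10, followed the same order, which was also that of the summed macrophage markers. Their part in these levels was not tested. The CPM of Stat3 was 145, 155 and 149 in the libraries of group A, 764, 1022 and 630 in group B, 102, 112 and 111 in group C, and 224, 224 and 235 in group D. Again no groups overlapped, although neighbouring groups differed by a factor of 1.39 and 1.52 in their means below the highest group and by 3.54 between the highest and the next. For Stat2 these factors were 1.96 between the lowest groups, 2.70 between the middle ones and 2.16 between the highest.

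Stat5a, a mediator of GM-CSF signals, was at 20.9, 24.3 and 27.0 CPM in the libraries of group A and at 25.2, 24.3 and 24.2 in those of group C. These groups overlapped. It was at 82.4, 136 and 42.1 CPM in the libraries of group B, a wide spread, and at 68.6, 65.7 and 63.0 in those of group D. These also overlapped with each other but lay above groups A and C. The library of group B with the lowest Stat5a, replicate 3, had the highest stromal sum (1457 CPM) and neutrophil sum (164 CPM), and the library with the highest Stat5a, replicate 2, had the lowest of both (183 and 13.0 CPM). Their part in the spread was not tested. Stat2, Stat3, Stat4 and Stat5b were also highest in replicate 2 and lowest in replicate 3 of this group.

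Stat5b, the neighbour and close relative of Stat5a, had group means from 46.7 to 65.7 CPM. Its CPM was 51.8, 57.4 and 54.7 in the libraries of group A, 58.7, 90.8 and 47.7 in group B, 50.6, 49.2 and 47.4 in group C, and 44.2, 49.3 and 46.4 in group D. Only groups A and C, and groups A and D, did not overlap. Stat6, the mediator of IL-4 and IL-13, was at 287, 240 and 236 CPM in the libraries of group A, the highest group. It was at 172, 219 and 187 CPM in group B, 185, 191 and 192 in group C, and 165, 151 and 153 in group D, the lowest group. The groups in the middle of this order overlapped with each other and with no other group.

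Stat4, best known in T and NK cells, was low, with 18 to 144 counts in a library. Its CPM was 1.60, 1.77 and 2.70 in the libraries of group A, 2.04, 3.36 and 0.622 in group B, 0.863, 0.464 and 1.16 in group C, and 0.553, 0.932 and 0.686 in group D. Group A lay above groups C and D, and no other groups were apart. Of the 8 T and NK cell markers, Cd247 had the most counts, 195 to 432 in a library, Lck had 11 to 206 and Klrb1c 1 to 97, while Cd3d, Cd3e, Cd3g, Cd2 and Ncr1 had at most 6 in any library. Their part in the level of Stat4 was not tested.

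**Figure D2:**
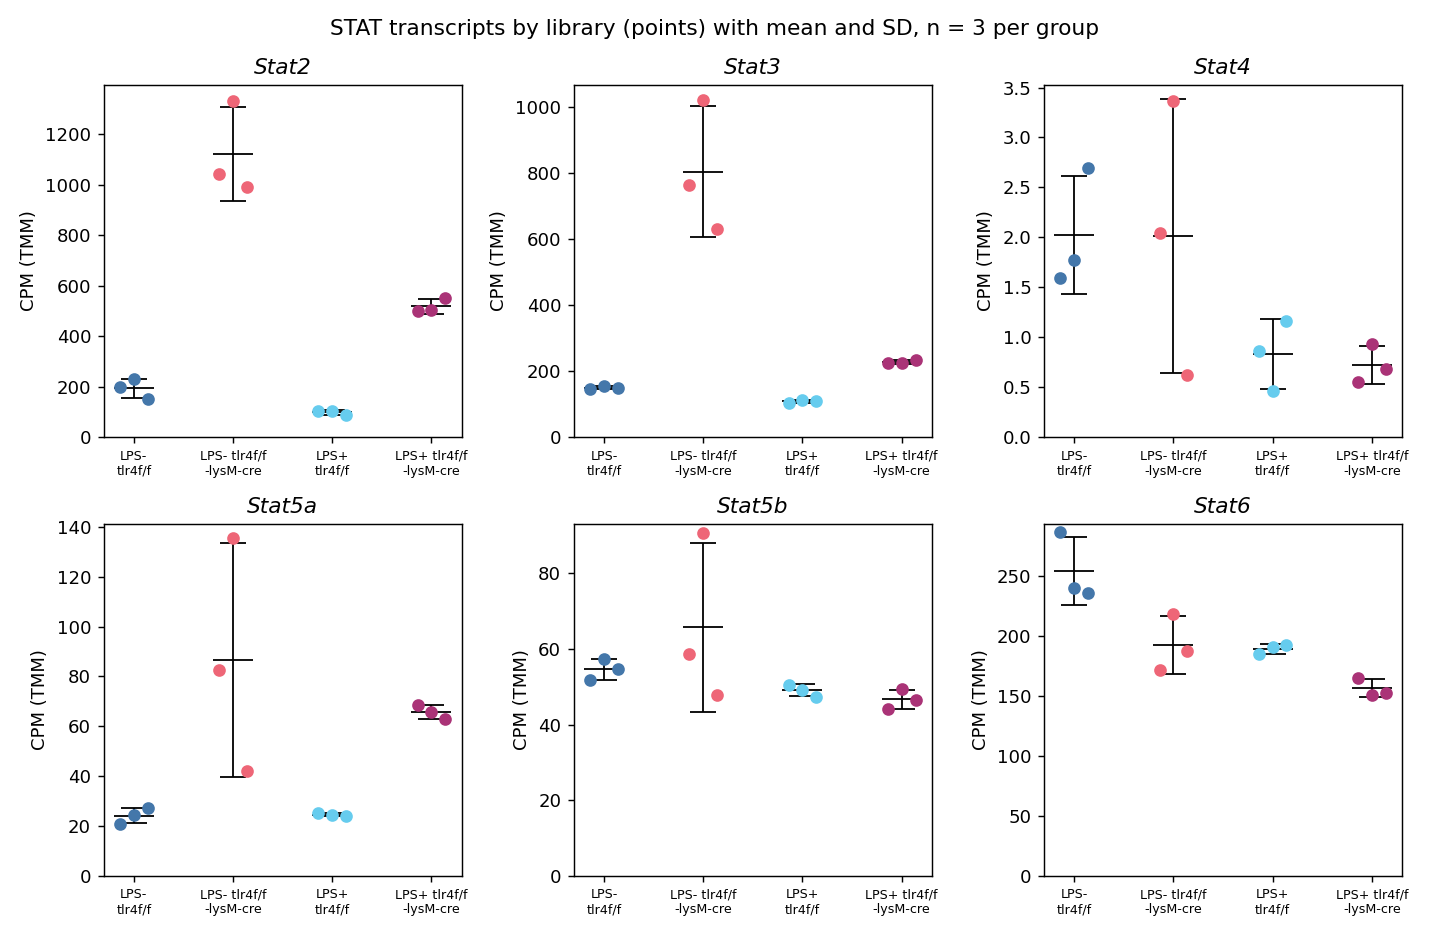
Level of each STAT gene (CPM scaled by TMM, linear axes from 0) in every library, by group as headed. Points are libraries, and bars are the mean and SD of 3 libraries. Stat2 and Stat3 are highest in group B, and Stat5a is at 42.1 CPM or more in groups B and D and at most 27.0 CPM in the others.

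Groups D and C were compared first, since their libraries spread least. As headed, this is the effect of the deletion under LPS, and with the headings exchanged it is the effect of LPS in tlr4f/f-lysM-cre. The chi-square of counts between replicates, per degree of freedom, was 9.52 to 21.1 in groups C and D. It was 185 to 375 in groups A and B. Each fit used a single dispersion per gene, so that p-values of a comparison across these pairs of groups pool unlike spreads. Differentially expressed genes (DEGs) were those that differed by more than 2-fold with a p below 0.01 after Benjamini-Hochberg adjustment over all genes tested (edgeR's quasi-likelihood test), and 21.8% of 14551 genes were DEGs. Stat2, Stat5a and Stat3 were DEGs, all higher in group D, a direction in which 10.8% of all genes were called, against 10.9% in the other. Stat2 was 5.33-fold higher (log2 fold change 2.41, standard error 0.0787, adjusted p = 1.59e-10). Stat5a was 2.70-fold higher (log2 fold change 1.43, standard error 0.0573, adjusted p = 4.77e-10) and Stat3 2.12-fold higher (log2 fold change 1.08, standard error 0.0538, adjusted p = 3.56e-09). Stat6 was lower by a smaller factor (log2 fold change -0.27, standard error 0.0513, adjusted p = 6.62e-04), short of the fold of a DEG. Stat5b (log2 fold change -0.06, 95% interval -0.19 to 0.07, adjusted p = 0.390) and Stat4 (-0.22, -1.05 to 0.61, adjusted p = 0.647) did not pass. The interval of Stat4 takes in changes of more than 2-fold downwards, that of Stat5b does not. The groups did not overlap for 4 of the 6 genes, against 67.5% of all genes. The stromal markers were also higher in all 5 cases, by a median log2 fold change of 0.83, and 2 of them, Pdgfra and Pdgfrb, were DEGs. The summed stromal level was at most 53.9 CPM in these 6 libraries. The macrophage markers Adgre1 and Cd14, the neutrophil markers S100a8 and Camp and the dendritic cell marker Xcr1 were higher DEGs as well, and the neutrophil marker Mpo a lower one. Of 8 macrophage markers 6 were higher and 2 lower, and of 3 dendritic cell markers tested 2 were higher and 1 lower. Camp had at most 8 counts in a library of group C and entered the test through group D. Xcr1, with 4 to 15 counts in a library of group C, and Pdgfra, with 4 to 18, also entered through group D. Mpo had 9 to 23 counts in a library of group D and entered through group C. The part of these markers in the STAT differences was not tested.

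Between groups B and A, 17.1% of 14649 genes were DEGs (9.26% higher and 7.81% lower in group B). As headed, this is the effect of the deletion without LPS, and with the headings exchanged it is the effect of LPS in tlr4f/f. Stat2 was 5.78-fold higher in group B (log2 fold change 2.53, standard error 0.242, adjusted p = 9.84e-04) and Stat3 5.33-fold higher (2.41, standard error 0.222, adjusted p = 8.74e-04). Both were DEGs. Stat5a, with a log2 fold change of 1.83 (standard error 0.400), missed the threshold of 0.01 with an adjusted p of 0.0140 in edgeR. Without replicate 3 of group B, its log2 fold change was 2.20 and its adjusted p 0.00541. Stat6 (log2 fold change -0.41, adjusted p = 0.0925), Stat5b (0.25, adjusted p = 0.429) and Stat4 (-0.03, adjusted p = 0.979) did not pass. The groups did not overlap for 4 of the 6 genes, against 54.1% of all genes. All 5 stromal markers were also higher here, with a median log2 fold change of 2.52 and no DEG among them, and their part in these differences was not tested. Of 8 macrophage markers 6 had positive and 2 negative estimates, with a median of 1.14, and Spi1 was the only DEG, higher. Xcr1, the only dendritic cell marker tested here, was a higher DEG (log2 fold change 4.75). It had 1 to 14 counts in a library of group A and entered the test through group B. Of 5 neutrophil markers tested 4 had positive estimates, with a median of 3.13 and no DEG. The part of these markers in the result was not tested.

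Between groups D and B, 6.09% of 14245 genes were DEGs (2.42% higher and 3.66% lower in group D). As headed, this is the effect of LPS in tlr4f/f-lysM-cre, and with the headings exchanged it is the effect of the deletion under LPS. Stat3 fell by 1.81 on the log2 scale in group D (standard error 0.179, adjusted p = 0.00192), a 3.50-fold difference, and Stat2 fell by 1.10 (standard error 0.142, adjusted p = 0.00385), a 2.14-fold difference. Both were DEGs. The other genes had negative estimates but did not pass, with log2 fold changes of -0.29 for Stat6 (adjusted p = 0.112), -0.38 for Stat5a (adjusted p = 0.482), -0.47 for Stat5b (adjusted p = 0.156) and -1.45 for Stat4 (adjusted p = 0.120). The groups did not overlap for 3 of the 6 genes, Stat2, Stat3 and Stat6, against 48.0% of all genes. The calls of both genes were lost when any 1 library of group D was left out, with adjusted p values from 0.0210 to 0.0234 for Stat3 and from 0.0311 to 0.0383 for Stat2, while the log2 fold changes stayed between -1.82 and -1.79 and between -1.14 and -1.06. Only 0.0270% to 0.101% of all genes were called in these fits, against 6.09% with all libraries. Without replicate 2 of group B, Stat2 had a log2 fold change of -0.97 and no longer reached the fold of a DEG. The stromal markers were lower in group D in all 5 cases, with a median log2 fold change of -4.54 and 3 DEGs, Col1a1, Col1a2 and Pdgfrb, and the 4 neutrophil markers tested had a median of -2.57 with no DEG. Of 8 macrophage markers 7 were lower and 1 higher, with a median of -0.70 and no DEG. The part of these markers was not tested.

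Between groups C and A, no STAT gene was a DEG by edgeR, and 0% of 14712 genes were. As headed, this is the effect of LPS in tlr4f/f, and with the headings exchanged it is the effect of the deletion without LPS. Over all genes, 1.28% reached an adjusted p below 0.05 and 24.6% reached that level before adjustment, and DESeq2 called 467 DEGs, 3.17%, without changing the count of 0 STAT DEGs. The estimate for Stat2 was the largest apart from that of Stat4 (log2 fold change -0.96, 95% interval -1.38 to -0.54, adjusted p = 0.0559). Without replicate 3 of group A, its lowest library, Stat2 fell by 1.10 on the log2 scale and was a DEG (adjusted p = 0.00765), as were 1.19% of all genes. Estimates for Stat3 (-0.45, adjusted p = 0.0559), Stat6 (-0.41, adjusted p = 0.0972), Stat4 (-1.26, adjusted p = 0.138), Stat5b (-0.14, adjusted p = 0.323) and Stat5a (0.04, adjusted p = 0.838) did not pass either. Values did not overlap for 5 of the 6 genes, all but Stat5a, each lower in group C, against 35.3% of all genes in either direction and 18.1% in this one. The stromal markers had a median log2 fold change of -2.94 in the same comparison with no DEG. Of 8 macrophage markers 7 were lower and 1 higher, with a median of -0.82 and no DEG. The part of these markers was not tested.

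Groups D and A differ in both factors under either reading, so that their comparison does not depend on the headings. Here 13.4% of 14595 genes were DEGs (6.93% higher and 6.45% lower in group D). Stat5a was 2.74-fold higher with LPS and Cre (log2 fold change 1.45, standard error 0.113, adjusted p = 4.56e-04) and Stat2 2.70-fold higher (1.43, standard error 0.169, adjusted p = 0.00170), and both were DEGs. The call of Stat2 was lost when any 1 library of group D was left out, where the adjusted p was 0.0117 to 0.0124 and the log2 fold change 1.39 to 1.47. In these fits 3.89% to 4.93% of all genes were called. Stat3 was higher by 0.61 on the log2 scale (adjusted p = 0.00258) and Stat6 fell by 0.70 (adjusted p = 0.00447), both under the fold of a DEG. Stat4 had a log2 fold change of -1.48 (adjusted p = 0.0196, not a DEG), and Stat5b had a log2 fold change of -0.22 (adjusted p = 0.0771). All 6 genes were without overlap between these groups, as were 57.9% of all genes. Xcr1, the only dendritic cell marker tested here, was a higher DEG as well (log2 fold change 4.05), and it entered the test through group D. The 5 stromal markers had a median of -1.27 with 4 negative estimates and no DEG. The part of these markers was not tested. These comparisons share libraries with one another, and their values are given side by side rather than as independent results.

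**Figure D3:**
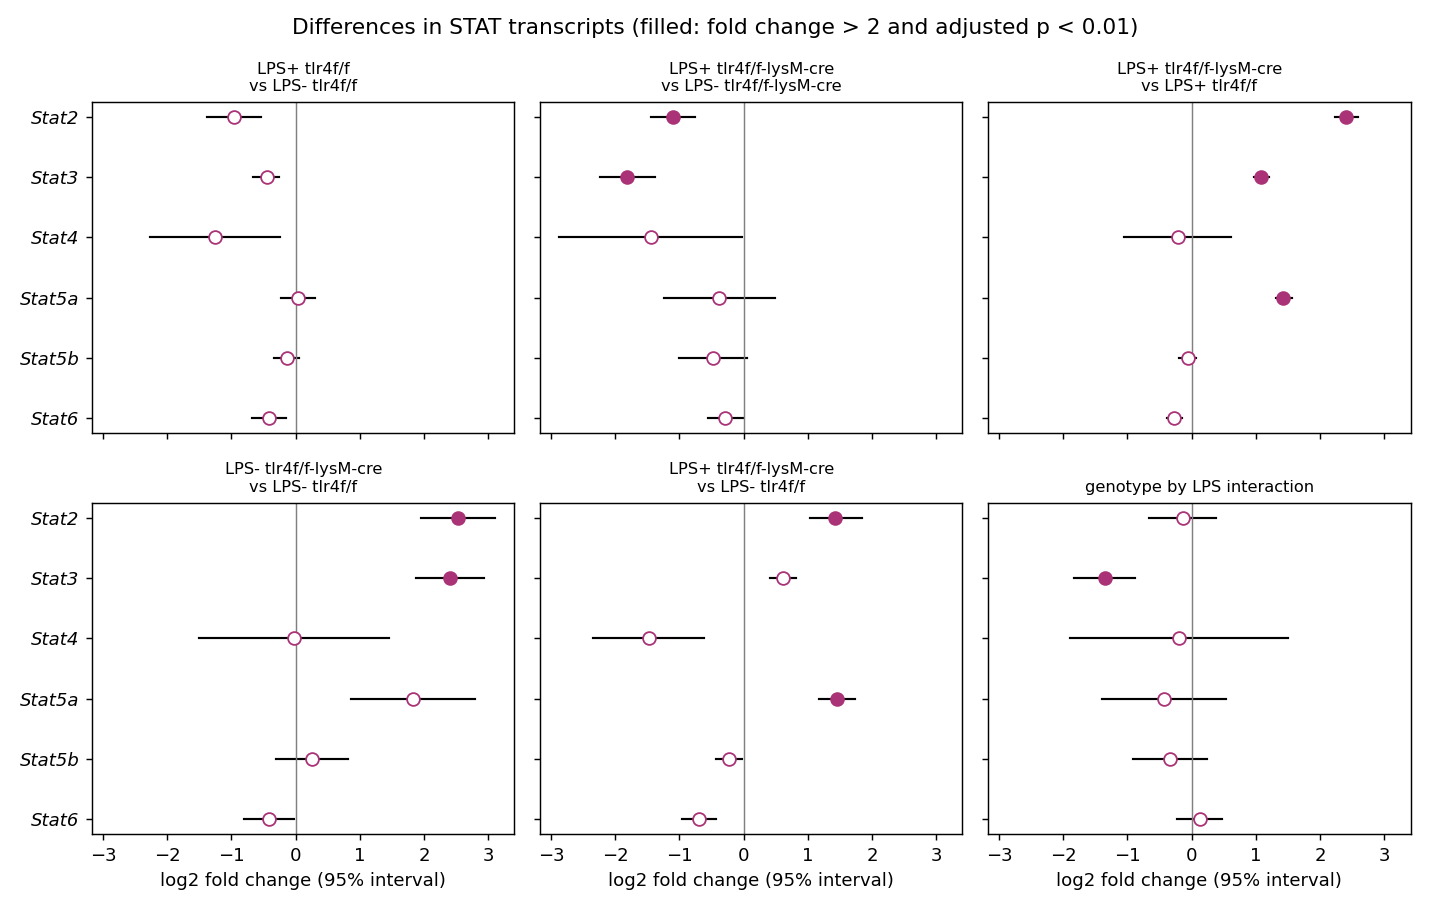
Log2 fold change of each STAT gene with its 95% interval (edgeR) in 5 comparisons, with the genotype by LPS interaction in a panel of its own. Filled points are DEGs. Stat2 and Stat3 are filled for group B against A and for group D against C, and Stat3 is the filled point of the interaction.

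The interaction asked whether the difference between LPS+ and LPS- differed between the genotypes, and exchanging the headings leaves it the same. It was fitted on all 12 libraries, and 0.994% of 15792 genes were called (0.589% positive and 0.405% negative). Stat3 was the only member called, with an interaction of -1.35 on the log2 scale (standard error 0.215, 95% interval -1.83 to -0.88, adjusted p = 0.00761). Stat3 rose 5.33-fold from group A to group B but 2.12-fold from group C to group D. For Stat2 the same folds were 5.78 and 5.33, and its interaction was -0.14 (95% interval -0.66 to 0.38, adjusted p = 0.770). The intervals of Stat5a (-1.39 to 0.54) and Stat5b (-0.92 to 0.24) were wider, that of Stat4 (-0.20, standard error 0.772) was the widest, and that of Stat6 (-0.23 to 0.48) was narrower. The call for Stat3 was lost when any 1 library of group A, C or D was left out, with adjusted p values from 0.0120 to 0.0333, and the interaction itself then lay between -1.39 and -1.31. Of all genes, 0.0609% to 0.128% were called without a library of group C or D, and 0.607% to 1.15% without a library of group A.

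The JAK kinases, which phosphorylate the STATs, were followed as a list of 4. Jak2, used by the receptors of GM-CSF, IL-12 and interferon-gamma, had the widest range. Its CPM was 36.6, 37.3 and 29.0 in the libraries of group A, 916, 966 and 780 in group B, 38.9, 39.9 and 38.0 in group C, and 332, 364 and 337 in group D. It was 8.91-fold higher in group D than in group C (adjusted p = 1.06e-12) and 25.7-fold higher in group B than in group A (adjusted p = 3.93e-04). Its interaction was called as well (-1.55, standard error 0.176, adjusted p = 0.00194). Tyk2, the kinase of the interferon and IL-12 receptors, was a DEG in both of these comparisons, with log2 fold changes of 1.26 (adjusted p = 1.02e-09) and 1.82 (adjusted p = 0.00690). Jak1, shared by most of these receptors, was a DEG in the second only (log2 fold change 1.29, adjusted p = 0.00372), with 0.45 in the first (adjusted p = 1.08e-05), and its interaction was -0.86 (adjusted p = 0.0285, not called). Jak3, the partner of the common gamma chain, was not a DEG in either, with values of 16.4 to 59.4 CPM over all libraries. From group B to group D, Jak2 (-1.35, adjusted p = 0.00143) and Jak3 (-1.17, adjusted p = 0.00784) fell as DEGs, and Jak1 (-0.83, adjusted p = 0.0111) and Tyk2 (-0.82, adjusted p = 0.0648) did not pass.

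Of 17 cytokines that activate STATs, 13 could be tested between groups D and C. The 5 of them whose counts in group C were 31 or more in each library were higher DEGs in group D, as were 10.8% of all genes, namely Il10 (log2 fold change 3.05), Il15 (2.89), Il27 (5.89), Ebi3 (2.13) and Osm (2.80). The other 8, Ifnb1, Il6, Il12a, Il12b, Il23a, Lif, Csf2 and Csf3, had at most 13 counts in a library of group C and entered the test through group D, so that they could only come out higher, and their calls are not counted as support. Among them, Il6, an activator of Stat3, had 6 to 13 counts per library in group C and 6958 to 8982 in group D. Il12a, a subunit of IL-12, had 246 to 346 counts against 0 in every library of group C and was at least 114-fold higher (taking 3 counts per library as the floor). From group B to group D, 5 of 13 were lower DEGs, against 3.66% of all genes, namely Ifnb1, Il10, Il15, Il27 and Ebi3. The largest change among them was that of Il10, an activator of Stat3, which was at 67.2, 130 and 172 CPM in the libraries of group B and at 7.18, 5.92 and 5.04 in group D (log2 fold change -4.34, standard error 0.382, adjusted p = 0.00134). The groups did not overlap.

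Receptor chains went both ways. Of 22 tested between groups D and C, 7 were higher and 3 lower DEGs, where 10.8% and 10.9% of all genes were. Csf3r, the G-CSF receptor that signals through Stat3, had the largest rise (log2 fold change 2.96, adjusted p = 1.30e-05), and Lifr, the receptor of LIF, the largest fall (-2.83, adjusted p = 8.81e-07). Il6st, the gp130 chain that IL-6 family cytokines share, was lower as well (-1.65, adjusted p = 1.65e-07), while Il4ra, the chain upstream of Stat6, was higher (2.20, adjusted p = 6.04e-11). Between groups D and B, 2 of 23 were DEGs, both lower, Il15ra (-2.87, adjusted p = 0.00110) and Il4ra (-1.38, adjusted p = 0.00275), a count near the background of 6.09% of all genes.

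Of 13 inhibitors of STAT signalling, 7 were higher DEGs in group D than in group C, Socs1, Socs2, Socs3, Cish, Ptpn1, Ptpn6 and Usp18, and 1, Pias3, was lower (log2 fold change -1.07, adjusted p = 3.53e-07). Of all genes, 10.8% were higher and 10.9% lower DEGs. Socs3, the inhibitor of gp130 receptors and a target of Stat3, was at 10.7, 9.64 and 1.18 CPM in the libraries of group A and at 2.00, 3.22 and 1.98 in those of group C. It was at 2176, 2474 and 1621 CPM in group B and at 468, 460 and 478 in group D. The difference between groups D and C was 201-fold (adjusted p = 1.28e-09). From group B to group D it fell by 2.14 on the log2 scale (standard error 0.171, adjusted p = 0.00113), where Usp18, an inhibitor of interferon receptor signalling, was the other DEG of the list (-1.70, adjusted p = 0.00134). There 3.66% of all genes were lower DEGs.

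Irf9, which binds Stat2 in ISGF3, was at 77.0 to 97.3 CPM in the libraries of group A, 133 to 146 in group B, 48.6 to 58.8 in group C and 85.9 to 87.0 in group D. It passed an adjusted p of 0.01 in 3 comparisons, each with less than a 2-fold change, among them 0.68 on the log2 scale between groups D and C (adjusted p = 1.83e-06). Of the 14 ISGF3 targets, all were higher DEGs in that comparison, against 10.8% of all genes, with a median log2 fold change of 4.05 against -0.02 over all genes. Rsad2, an antiviral enzyme that holds the ISRE core in its promoter, was the largest, at 31.7, 29.8 and 24.8 CPM in group C against 1627, 1866 and 2296 in group D (67.6-fold, adjusted p = 2.49e-07). From group B to group D, 10 of the 14 were lower DEGs, against 3.66% of all genes, with a median of -1.38, led by Cmpk2 (-2.46, standard error 0.295, adjusted p = 0.00317). Between groups B and A, 13 of 14 were higher DEGs, against 9.26% of all genes, with a median of 4.25.

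Among 10 Stat3 targets, 8 were higher DEGs between groups D and C (10.8% of all genes), with a median log2 fold change of 1.80, and 8 were lower DEGs between groups D and B (3.66% of all genes), with a median of -1.40. Socs3 had the largest change in both, and Bcl3, Nfil3, Sbno2, Il4ra, Pim1 and Junb were DEGs in both. The interaction was called for 1 of the 10, the AP-1 subunit Junb, and for 0.994% of all genes. Of 7 Stat5 targets tested in the first of these comparisons, 5 were higher DEGs, Cish, Socs2, Pim1, Osm and Gfi1, and 1, the cyclin Ccnd1, was lower (log2 fold change -3.15, adjusted p = 1.73e-11). Of all genes, 10.8% were higher and 10.9% lower DEGs there. Gfi1, a transcriptional repressor, had 3 or 4 counts in each library of group C and 158 to 313 in group D, through which it entered the test (log2 fold change 6.39, adjusted p = 7.84e-07). In the second, Il2ra, the alpha chain of the IL-2 receptor, fell from 6.36, 4.11 and 1.52 CPM to 0.207, 0.137 and 0.265 (log2 fold change -4.25, standard error 0.616, adjusted p = 0.00557), and Pim1 was the other DEG of 8, where 3.66% of all genes were lower DEGs. Il2ra had 49 to 237 counts in a library of group B and 5 to 12 in group D. It entered the test through group B, so that it could only come out lower.

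Targets of Stat6 did not move one way. Between groups D and C, 3 of 11 were higher DEGs, the chemokines Ccl17, Ccl22 and Ccl24, and 2 were lower, the lectin Clec10a (log2 fold change -3.23, adjusted p = 1.24e-04) and the nuclear receptor Pparg (-2.47, adjusted p = 4.43e-09), where 10.8% and 10.9% of all genes were. Ccl17 had 69 to 111 counts per library against 0 or 1, and it and Ccl24, with at most 6 counts in a library of group C, entered the test through group D. Clec10a had 3 to 19 counts in a library of group D and 71 to 176 in group C, through which it entered. Between groups D and B, Egr2, a zinc finger factor, was the only DEG of 11, with a median of -1.03 over the list, where 6.09% of all genes were DEGs. Egr2 rose from 18.8, 11.7 and 15.4 CPM to 113, 120 and 135 (log2 fold change 3.02, adjusted p = 9.62e-04). Over all lists, which share some genes such as Socs3, 59 genes of the pathway other than the STATs were DEGs in the first of these comparisons and 28 in the second, where 21.8% and 6.09% of all genes were. Shared genes were counted once, and the share of the pathway genes tested that were called was not computed. The 59 include the cytokines named above as entering the test through group D, with Gfi1, Ccl17 and Ccl24, and Clec10a, which entered through group C. The 28 include Il2ra, which entered through group B. The direction of these calls was fixed, and they are not counted as support. With any 1 library of group D left out, edgeR called 0 pathway genes in the second, those named here included, while it called 57 to 60 in the first whichever library was left out. The share of all genes called in these fits was 0.0270% to 0.101% in the second and 19.9% to 21.3% in the first. Between groups B and A 48 pathway genes were called, and 31 without replicate 2 of group A, with 17.1% and 6.77% of all genes called. Between groups D and A there were 43, with 13.4% of all genes called. With any 1 library of group D left out there were 19 to 21, with 3.89% to 4.93% of all genes called. The 48 include Ifnb1, Il6, Il12a, Il12b, Il23a, Csf3, Il2ra and Gfi1, which entered the test through group B. Each had at most 4 counts in at least 1 library of group A. The 43 include the same cytokines with Gfi1, Cish, Socs2, Ccl17 and Ccl22, which entered through group D. Clec10a, also among the 43, entered through group A. None of these calls is counted as support. The targets are shared between STATs and other factors, and no list separates the output of 1 STAT from that of the others.

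**Figure D4:**
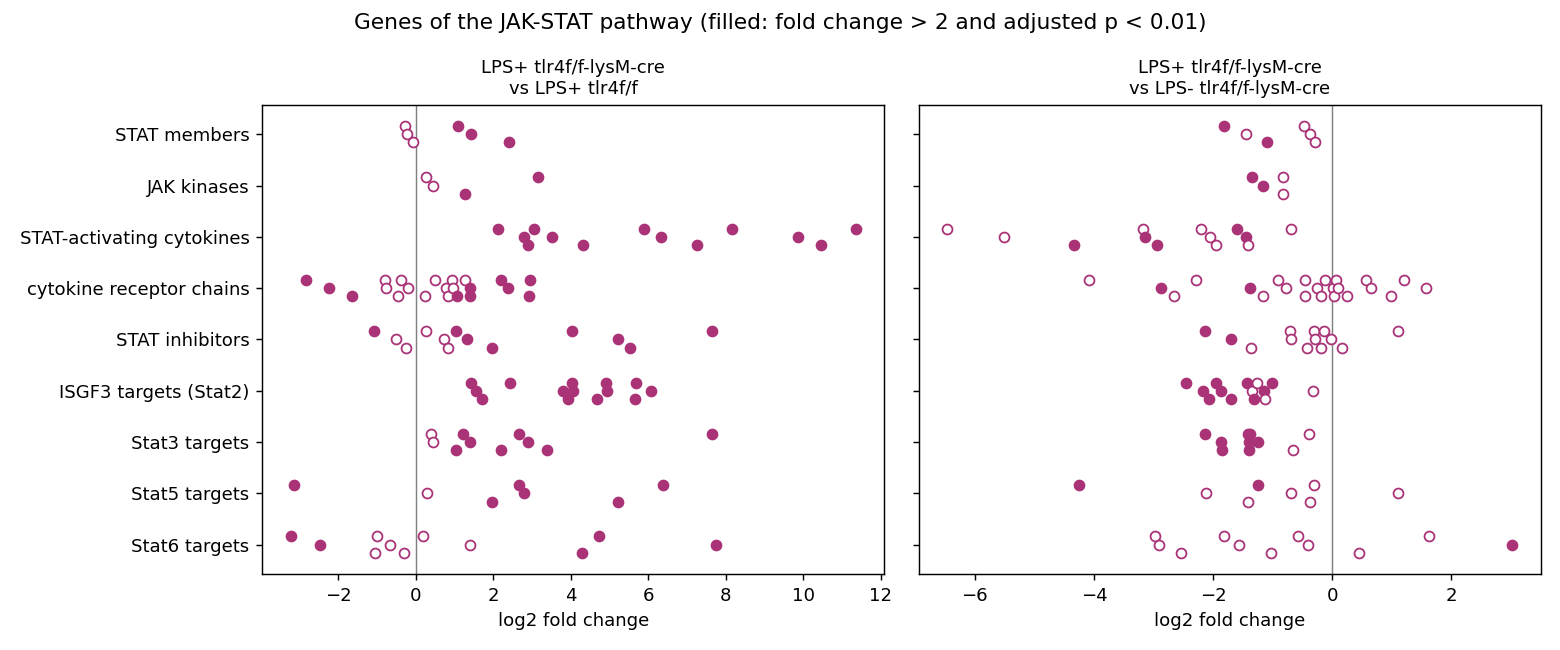
Log2 fold change (edgeR) of genes in lists of the JAK-STAT pathway, the STATs included, in the comparison of group D with group C (left) and with group B (right), groups as headed. Each point is a gene, and filled points are DEGs. All 14 ISGF3 targets are filled and above 0 in the first panel, and 10 of them are filled and below 0 in the second.

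The genes with the pattern most like each member were sought by Pearson's r of log2 CPM over the 12 libraries, among 8503 genes with a mean of at least 10 CPM. These values mix differences between and within the 4 groups, share the same libraries and depths, and are a description with no test. Stat2 was closest to Trex1 (0.997), a DNA exonuclease, and Rnf213 (0.996), a large ubiquitin ligase. Stat3 was closest to Zfp319 (0.997) and to Trim25 (0.995), a ubiquitin ligase of antiviral sensing. Stat5a was closest to Wars (0.986), a tryptophanyl-tRNA synthetase, and Cmtm6 (0.986), and Stat5b to Chmp1a (0.966) and Marc2 (0.933). Stat6 was closest to the urate transporter gene Slc2a9 (0.946). Stat4, with its low counts, reached 0.906 with Focad and 0.905 with Exoc7.

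Transcripts of a member had similar counts. For each STAT gene the table held 2 to 5 transcripts, and the second in rank held between 93.1% and 99.2% of the count of the first. Shorter forms, 1 each of Stat2 (2200 bases) and Stat3 (2138 bases), held 47.7% and 43.2% of the count of the top form, and between 46.4% and 48.2% and between 42.3% and 43.7% in the 4 groups. Because the counts of overlapping transcripts repeat the same reads, they show no isoform use.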

How the data were processed

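The table deposited by the authors holds raw counts of reads for each transcript, with transcript lengths. Per the labels and the paper, polyA libraries were made (the labels also name an rRNA removal kit), reads were trimmed with Trimmomatic 0.36 (submitters' processing notes), aligned to mm10 with HISAT2 and counted with HTSeq. Of 115140 transcripts, that with the highest total was taken per gene.

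Tests were run with edgeR 4.0.16 under R 4.3.3 (genes kept by filterByExpr, TMM, robust quasi-likelihood fit, Benjamini-Hochberg adjustment over all genes tested) on the 6 libraries compared, or on all 12 for the interaction. DEG criteria follow the paper, where DESeq was used. Log2 CPM used a prior count of 2. Scripts were checked on simulated data, and no libraries agreed within sampling noise. Members, gene lists and tests were chosen with earlier results of these data known, and lists come from general knowledge. Genes named beyond the members are the JAK kinases, Irf9, Tlr4, Lyz2, Il1b, the DEG of a list with the most extreme fitted fold change, both upwards and downwards, in the comparisons of group D with C and with B, and the 2 genes most like each member, of which 1 is not reported here. Other genes were named after their values were seen. Motifs were searched in RefSeq promoters of GRCm38.p6, and positions come from a GRCm38 annotation. Alternatives were DESeq2 1.42.0, voom of limma 3.58.1 with quality weights, RLE factors, other filters, a fit of all 12 libraries together, a block for the replicate number, a threshold of 0.05 on the adjusted p, sums over transcripts, exchanged headings and each library left out. Reads were counted without molecular identifiers, and a floor of 3 counts covers counting error only.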

Additional observations from a re-analysis of the deposited data

Results flagged for a closer look

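Stat3 is listed here because its difference between LPS+ and LPS- differed between the genotypes by the test of the difference itself. The interaction was -1.35 on the log2 scale (edgeR, standard error 0.215, adjusted p = 0.00761), and it is the same under both readings of the headings. All 3 libraries of group B were above all others, at 630 to 1022 CPM. The call was lost when any 1 library of the other 3 groups was left out, with interactions of -1.39 to -1.31 and adjusted p values of 0.0120 to 0.0333, and it held when any 1 library of group B was left out. Of all genes, 0.994% were called with all libraries, and 0.0609% to 0.128% without a library of group C or D. The share was 0.607% to 1.15% without a library of group A and 0.979% to 1.88% without a library of group B.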

How the results depend on the processing

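Between groups D and C, Stat2, Stat3 and Stat5a were called under every alternative tried on these libraries, and 4 STAT genes at an adjusted p below 0.05 with no minimum fold. Stat5a between groups B and A was called by DESeq2 (1.92, adjusted p = 3.93e-05), by voom (1.81, adjusted p = 0.00818) and in a fit of all libraries together (1.85, adjusted p = 6.21e-04), and DESeq2 called Stat4 between groups D and A (-1.46, adjusted p = 0.00104). Between groups C and A, pathway genes called numbered 18 by DESeq2, 1 by voom, 2 without a filter, 3 in the fit of all libraries, 3 at an adjusted p below 0.05 and 5 at that p with no minimum fold, against 0. Of all genes, 3.17% were called by DESeq2, 0.177% by voom, 0.135% without a filter and 0.475% in the fit of all libraries. With no minimum fold, 1.28% of all genes were below that p. Between groups D and B, pathway genes called numbered 45 by DESeq2 (14.1% of all genes) and 50 at an adjusted p below 0.05 with no minimum fold, against 28 (6.09% of all genes). For the interaction they numbered 9 by DESeq2 (4.16% of all genes), 7 at an adjusted p below 0.05 and 11 with no minimum fold, against 3 (0.994% of all genes). With no minimum fold, 5 STAT genes were called between groups D and A, against 2. With the headings exchanged, the LPS effect in tlr4f/f called 2 STAT and 48 pathway genes, the effect of the deletion without LPS 0 and 0, the LPS effect with Cre 3 and 59, and the effect of the deletion under LPS 2 and 28 (edgeR). In this order, 17.1%, 0%, 21.8% and 6.09% of all genes were called. The 48, 59 and 28 include genes named above whose calls are not counted as support.

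Samples with the same replicate number correlated in their deviations by -0.04 to 0.47, above 0.1 in 4 of 15 pairs, and not every sample correlated best with its own number, so that the numbers were not treated as pairs. With a block for the replicate number, 1 STAT gene and 11 pathway genes were called between groups D and B (Stat2 -1.09, adjusted p = 0.0195), 1 and 25 between groups D and A (Stat2 1.45, adjusted p = 0.0116), and 0 STAT genes for the interaction (Stat3 -1.34, adjusted p = 0.0112). In the same order, 1.49%, 6.31% and 0.823% of all genes were called. The block changed no other call of a STAT gene.

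With each library left out in turn, STAT genes called ranged from 0 to 1 between groups C and A, 0 to 2 between D and B, 3 to 3 between D and C, 2 to 3 between B and A, 1 to 2 between D and A, and 0 to 1 for the interaction. Pathway genes called ranged, in the same order, from 0 to 8, 0 to 32, 57 to 60, 31 to 41, 19 to 43 and 0 to 4. The share of all genes called ranged from 0% to 1.19%, 0.0270% to 8.09%, 19.9% to 21.3%, 6.77% to 11.1%, 3.89% to 15.3% and 0.0609% to 1.88%. The cause of these changes was not tested.

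Among single estimates, 17 changed sign, all of genes that missed the threshold with and without the change. Stat4 between groups B and A became 0.06 with DESeq2, with RLE factors and with sums over transcripts, 0.01 with voom and 0.00 with at least 10 counts in every library, and it ranged from -0.60 to 0.44 with a library left out, with 0.22 and 0.00 among these values. With a library left out, Stat5a ranged from -0.04 to 0.13 (groups C and A) and from -0.73 to 0.08 (D and B), Stat4 from -0.48 to 0.10 (D and C) and Stat5b from -0.04 to 0.47 (B and A). Interactions ranged from -0.28 to 0.03 for Stat2 (0.01 the other positive value), from -0.63 to 0.39 for Stat4 (0.13 the other positive value) and from -0.75 to 0.06 for Stat5a. RLE factors moved none of the 24 group levels by more than the spread between replicates, and sums over transcripts moved 16. Counts of 18 to 144 per library limit what can be said of Stat4.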
